A study of Mus musculus with 2 samples.

Results

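The genes of the cytosolic and mitochondrial ribosomal proteins were described in mouse liver after gene transfer by adenovirus. Members were the protein-coding features of the deposited tables whose GENCODE symbol begins with Rpl, Rplp, Rps, Mrpl or Mrps followed by a number, without pseudogene names and without the Rps6k kinases. This gave 163 members of 47442 features, namely 52 of the cytosolic large subunit, 33 of the cytosolic small subunit, 49 of the mitochondrial large subunit and 29 of the mitochondrial small subunit. The rule used symbols and no measured value. It leaves out subunits with other names and takes in a few genes that are no ribosomal proteins by function, such as Rps19bp1, a regulator of the deacetylase SIRT1.

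The 2 libraries were made from livers of mice labelled C57BL/6, aged 8 to 9 weeks, taken 10 days after an adenovirus was injected into a tail vein. In the control library, called the β-Gal library in the figures, the virus carried β-galactosidase (β-Gal), and in the other it carried GBP5, a guanylate-binding GTPase that interferon induces. The series title asks whether raised GBP5 leads to damage and inflammation of the liver. The transgene promoter and the number of animals per library were not given in the sources used here, and with 1 library per group no difference had a replicate check and no test was made.

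Every ribosome joins a small subunit, which reads the mRNA, to a large subunit, which forms the peptide bond. The cytosolic ribosome makes nearly all cell proteins, and its protein genes are among the most highly transcribed genes of any cell. Their mRNAs begin with a run of pyrimidines, the 5′ terminal oligopyrimidine (TOP) tract, through which the kinase mTOR and the protein LARP1 set their translation and stability together. The mitochondrial ribosome makes the few proteins encoded by mitochondrial DNA, all of them parts of oxidative phosphorylation, and its own proteins are encoded in the nucleus and imported. The liver exports much of the protein of blood plasma and so depends on high ribosome output.

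The deposited unit is FPKM, fragments scaled to transcript length and library total, and the values rest on about 18405000 assigned reads for the control and 17206000 for GBP5. Gbp5 itself was at 4.24 FPKM in the control and 19.1 in the GBP5 library. The labels give 1 strain for both libraries, but H2-Ea-ps, the class II gene whose transcript C57BL/6 mice are known to lack, was listed at 0 in the control and at 253 FPKM in the GBP5 library. The GBP5 library thus went against its strain label, and strain and virus cannot be told apart in any value below. Most marker lists also differed between the libraries. Summed FPKM of 8 hepatocyte markers was 93668 in the control and 52281 in the GBP5 library, that of 10 proliferation markers was 152 and 737, that of 9 lymphocyte markers 33.2 and 97.8, that of 7 neutrophil markers 1937 and 202, and that of 8 pancreatic acinar markers 848 and 13.6, with Ctrb1, Pnlip, Cpb1, Cpa1 and Amy2a5 listed at 0 in the GBP5 library. For 6 erythroid markers the sums were closer, 1082 and 953 FPKM, and 1 of the 6, Alas2, was past 2-fold lower. Among those markers with at least 1 FPKM in either library, 10 of 10 proliferation and 5 of 7 lymphocyte markers were past 2-fold higher, and 4 of 8 hepatocyte, 7 of 7 neutrophil and 7 of 7 acinar markers past 2-fold lower, in the GBP5 library. Their part in the ribosomal protein values was not tested, and in bulk liver fewer cells of a type and less RNA per cell cannot be told apart.

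Start regions were available for 134 members, 65 cytosolic and 69 mitochondrial, from RefSeq on GRCm38.p6. A pyrimidine run was counted where a C within 5 bases of the annotated start opened a stretch of at least 5 C or T. Such a run stood at the start of 29 of 65 cytosolic members (44.6%), 15 of 69 mitochondrial members (21.7%) and 18.5% of 27025 promoters. The 6 starts below run from 30 bases before to 20 bases from the annotated start and are shown because they belong to the cytosolic and mitochondrial genes at both ends of the ratios described further on, beside the much expressed Rps27. Capitals mark the pyrimidine run, and a sequence without capitals has none by this count. Rps18 lies at chr17:33955646-33955695 on the minus strand, Rps27 at chr3:90213629-90213678 on the minus strand, Rpl38 at chr11:114668550-114668599 on the plus strand, Rpl41 at chr10:128549149-128549198 on the minus strand, Mrps24 at chr11:5707682-5707731 on the minus strand and Mrps6 at chr16:92058306-92058355 on the plus strand.
Rps18: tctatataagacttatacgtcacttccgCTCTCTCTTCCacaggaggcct
Rps27: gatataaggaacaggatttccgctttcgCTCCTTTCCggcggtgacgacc
Rpl38: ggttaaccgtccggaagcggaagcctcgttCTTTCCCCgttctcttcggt
Rpl41: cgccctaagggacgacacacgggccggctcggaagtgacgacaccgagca
Mrps24: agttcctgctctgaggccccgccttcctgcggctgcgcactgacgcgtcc
Mrps6: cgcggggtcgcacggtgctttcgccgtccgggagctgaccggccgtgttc

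Other promoter letters were searched on both strands from 250 bases before to 50 after the start. CCGGAAG, the core letters bound by ETS factors such as GABP, was found in 36.9% of cytosolic and 36.2% of mitochondrial members and in 9.12% of all promoters. AAGATGGC, which the factor YY1 binds, was found in 5 of 65 cytosolic (7.69%), 12 of 69 mitochondrial (17.4%) and 2.88% of all promoters. Both motifs share the letters AAG and can overlap. A match describes letters only. Members with and without a pyrimidine run had nearly equal median log2 ratios between the libraries, 0.52 and 0.51 in cytosolic members and 0.30 and 0.31 in mitochondrial members. Only the first listed start of each gene was searched, so members without a run by this count may still have a TOP tract. These medians therefore cannot compare mRNAs with and without the tract.

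The ratio used throughout is the base-2 logarithm of FPKM + 1 in the GBP5 library divided by FPKM + 1 in the control, so that a value above 0 is a higher level in the GBP5 library, and the pseudocount makes it understate changes of low genes. It was computed for features of at least 1 FPKM in either library, which held for 157 members and 13599 features. The median over all of these features was 0.48, and every ratio below should be read against that shift. Dividing the GBP5 library by the median FPKM ratio of 1.448 over 11828 features, called rescaling here, brought the median of all features to 0.03.

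Cytosolic ribosomal protein genes were higher in the GBP5 library almost without exception, and by about as much as the median feature. Of 80 measured members, 79 had a ratio above 0, the exception being Rps18, beside 10544 of all 13599 measured features. Of the 80, 43 (53.8%) lay above the median of all features. Median ratios were 0.51 for the large and 0.49 for the small subunit, and these became -0.021 and -0.040 after rescaling, so the direction of the class depends on the scaling. Median levels of the cytosolic members were 375 FPKM in the control and 532 FPKM in the GBP5 library. Their summed FPKM made up 4.23% of all FPKM in the control and 6.04% in the GBP5 library.

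Mitochondrial ribosomal protein genes were less shifted. Of 77 measured members, 70 had a ratio above 0, beside 10544 of 13599 features, but only 24 (31.2%) lay above the median of all features. Their median ratio was 0.31 in both subunits and -0.19 in both after rescaling. Median levels were 26.7 FPKM in the control and 35.3 FPKM in the GBP5 library, and the summed share went from 0.338% to 0.435% of all FPKM. No test of the difference between the 2 ribosomes is possible with these libraries.

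**Figure D1:**
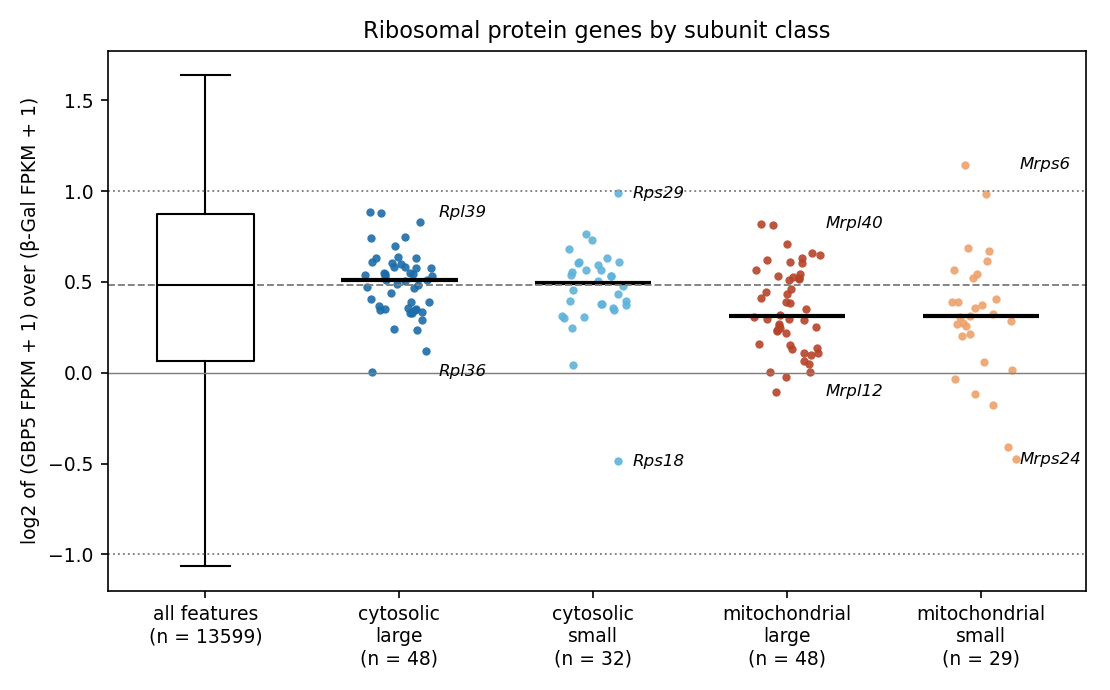
Log2 ratio of the GBP5 to the β-Gal library for all measured features (box, quartiles with the median; whiskers, 5th and 95th percentiles) and for each measured ribosomal protein gene (points; bars, class medians). The dashed line is the median of all features (0.48), the solid line is 0 and dotted lines mark 2-fold; cytosolic medians lie on the dashed line (0.51 and 0.49), both mitochondrial medians below it (0.31), and Rps18 stands alone among cytosolic genes.

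Only 1 of 157 measured members, Mrps6, was past 2-fold higher by the log2 ratio (0.637%) and none was past 2-fold lower. Among all measured features 19.2% were past 2-fold higher and 5.56% lower. Mrps25 had an FPKM ratio of 2.23 and missed the limit through the pseudocount (0.98). After rescaling, no member was past 2-fold higher and 1, Rps18, past 2-fold lower, against 7.04% and 9.38% of all features. The narrow spread was clearest in the cytosolic set, where 68 of 80 members (85.0%) lay within 0.25 of their own median and the SD was 0.21. Within the same distance of their own median lay 50 of 77 mitochondrial members (64.9%, SD 0.28), and 33.5% of all features (SD 0.89). Of the 1324 other features of at least 100 FPKM in either library, 17.1% lay within 0.25 of their median (SD 1.38). Of the 7456 other features between 5 and 150 FPKM in the control, a range that holds the measured mitochondrial members other than Mrps25 (3.88 FPKM), 35.4% did. The set from 100 FPKM takes in features high in only 1 library, such as H2-Ea-ps and Ctrb1, which widens its spread. The part of abundance in the narrow spread was not tested.

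**Figure D2:**
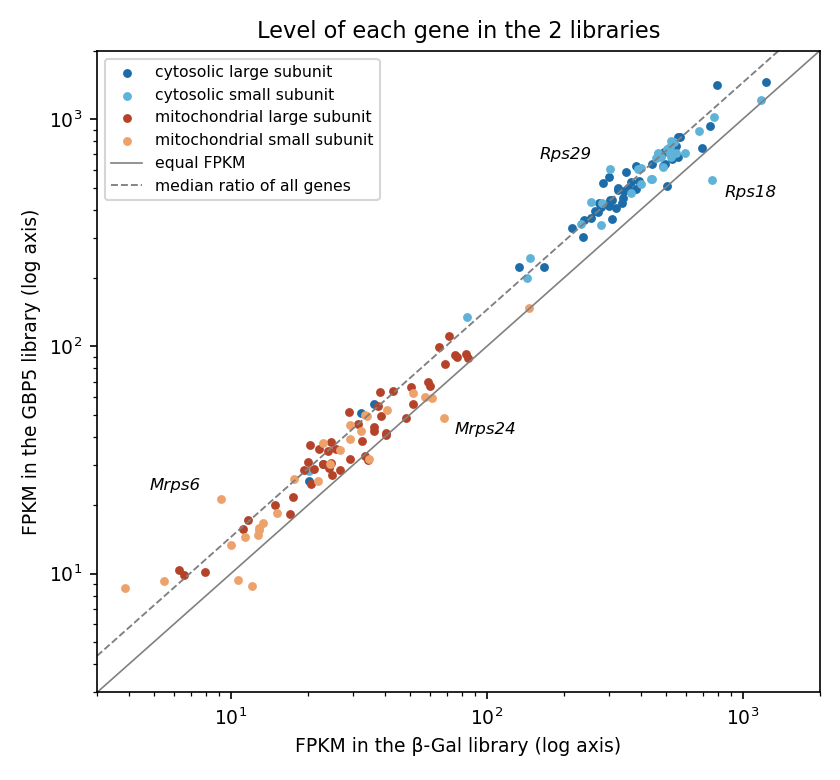
FPKM of each measured ribosomal protein gene in the β-Gal library (horizontal, log axis) and in the GBP5 library (vertical, log axis), coloured by subunit. The solid line marks equal FPKM and the dashed line the median ratio of 1.448; most cytosolic genes follow the dashed line, with Rps18 (758 and 541 FPKM) below the solid line, and Mrps6 (9.13 and 21.4 FPKM) and Mrps24 (68.0 and 48.5 FPKM) lie on opposite sides among mitochondrial genes.

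Reads could be recovered as whole numbers for 26 measured members, which gave 95% intervals of the FPKM ratio (Clopper-Pearson, exact) that cover counting error only. All 7 such cytosolic members had intervals above equal FPKM, as did 55.4% of the 4220 features with whole reads, and 5 of the 7 lay below the median ratio of 1.448, as did 30.8% of those features. Rps6, the small-subunit protein phosphorylated by S6 kinase downstream of mTOR, was at 508 FPKM in the control and 736 in the GBP5 library, a ratio of 1.45 (interval 1.41 to 1.49) that includes the median ratio. Rps20 was at 147 and 245 FPKM, a ratio of 1.67 (1.60 to 1.73), and was the only 1 of the 7 above the median ratio (32.4% of the 4220 features). Of the 19 such mitochondrial members, 10 had intervals above equal FPKM, 2 below (15.5% of the 4220 features) and 7 including it (29.2%). Against the median ratio 1 was above, 10 below and 8 included it (36.9% of the 4220 features). Mrpl54, the mitochondrial member above it, was at 38.3 and 63.2 FPKM, a ratio of 1.65 (1.45 to 1.88).

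The cytosolic members with the highest ratios were the 5 with the shortest coding sequences. Rps29, a zinc-binding protein of the small-subunit head, was at 303 FPKM in the control and 602 in the GBP5 library (log2 ratio 0.99). Rpl39, which lines the peptide exit tunnel, was at 284 and 525 FPKM (0.88). Rpl38, needed in the mouse embryo for translation of Hox mRNAs, was at 301 and 556 FPKM (0.88). Its start is printed above with a pyrimidine run of 8 bases. Rpl41, a peptide of 25 codons at the interface of the subunits, was at 792 and 1410 FPKM (0.83), and its RefSeq start printed above has no such run. Rps28 was at 255 and 433 FPKM (0.76). All 5 were higher in the GBP5 library by more than the median feature, and after rescaling they kept ratios from 0.23 to 0.46.

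These 5 genes have coding sequences of 25, 51, 56, 69 and 70 codons, and no other measured cytosolic member has 75 or fewer. The limit of 75 codons was set after their values were seen, so what follows is a description. Their ratios ran from 0.76 to 0.99 with a median of 0.88. The 35 cytosolic members from above 75 to 150 codons had a median of 0.49 and a highest value of 0.74, and the 37 from above 150 to 300 codons had a median of 0.48 and a highest of 0.75. Across all protein-coding genes the shortest coding lengths did not stand out, since the 85 measured genes with 75 or fewer codons had a median of 0.46, beside 0.52 for the 8770 with more than 300. Over all 80 measured cytosolic members the rank correlation of ratio and coding length was weak, with a Spearman coefficient of -0.12 across genes, which share the same 2 libraries.

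**Figure D3:**
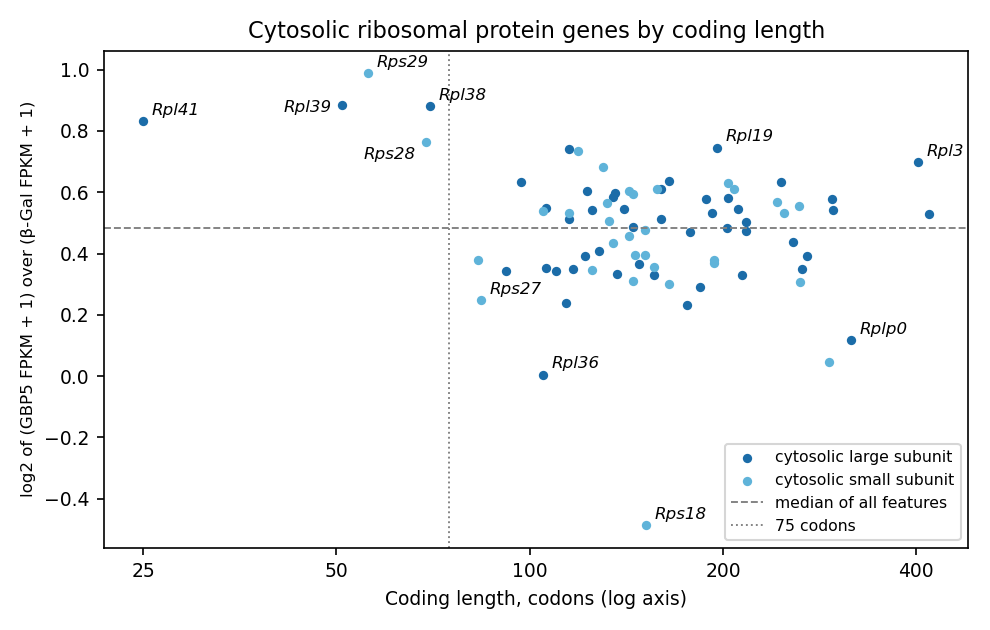
Coding length in codons (log axis) of the 80 measured cytosolic ribosomal protein genes against their log2 ratio of the GBP5 to the β-Gal library, coloured by subunit. The dashed line is the median of all features (0.48) and the dotted line 75 codons; the 5 genes left of it lie between 0.76 and 0.99, above every other gene in the plot, and those to its right have a highest value of 0.75.

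Next in order came genes of ordinary length. Rpl19 was at 133 and 224 FPKM (0.75), Rplp2 at 351 and 588 FPKM (0.74), Rps20 at 0.73 and Rpl3, a protein near the peptidyl transferase centre, at 384 and 624 FPKM (0.70). Neighbours in this order differ by a few hundredths of a log2 unit and have no replicate error to set them apart.

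Rps18, a protein of the small-subunit head, was the cytosolic gene that went the other way. It was at 758 FPKM in the control and 541 FPKM in the GBP5 library, 1.40-fold lower and a log2 ratio of -0.49, or -1.02 after rescaling. In the β-Gal library its level was far above the cytosolic median of 375 FPKM, and in the GBP5 library it was close to the median of 532. The next lowest gene, Rpl36, was at 508 and 509 FPKM (0.00), and Rps2, a small-subunit protein at the mRNA entry channel, at 1177 and 1214 FPKM (0.04). Rps18, Rpl36 and Rps2 all lie on chromosome 17. The 7 measured cytosolic members on that chromosome had a median ratio of 0.30, beside 0.51 for the 73 elsewhere, but they also include Rps28 and Rpl7l1 (0.76 and 0.63). This comparison was chosen after the values were seen.

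Rps18 spans chr17:33951999-33956001 (GRCm38) within the major histocompatibility complex, a region known to differ between mouse strains. Its divergent neighbour Vps52, a tethering factor of retrograde transport whose start lies 0.189 kb away, was at 19.2 FPKM in the control and 27.2 in the GBP5 library (0.48). Vps52 spans chr17:33955812-33967035 and so runs from the start of Rps18 towards H2-K1. H2-K1, the class I heavy chain gene of this end of the complex with its start 44.4 kb away, was at 2243 and 1525 FPKM (-0.56). The H2-K2 pseudogene between Rps18 and H2-K1 was at 7.82 and 5.37 FPKM (-0.47). On the H2-K1 side of Rps18, Gm4152, a pseudogene 24.8 kb away, was at 1.26 and 0.449 FPKM (-0.64). Ring1, 68.7 kb away on the same side, was at 13.3 and 12.2 FPKM (-0.12). Of 32 other measured features within 250 kb, 7 had ratios below 0 and 25 above, with a median of 0.45. Over all features 10544 of 13599 were above 0. The remaining features below 0 in the window, Zbtb22, Ndufa7 and March2, lay on the side of Rps18 away from Vps52 and H2-K1. Rps28, 131 kb away, was among those above 0. H2-DMa, a class II peptide-loading gene 164 kb away, was at 15.9 and 78.6 FPKM (2.24). The lower values thus did not extend over the whole window, and the part of the strain in the value of Rps18 was not tested.

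**Figure D4:**
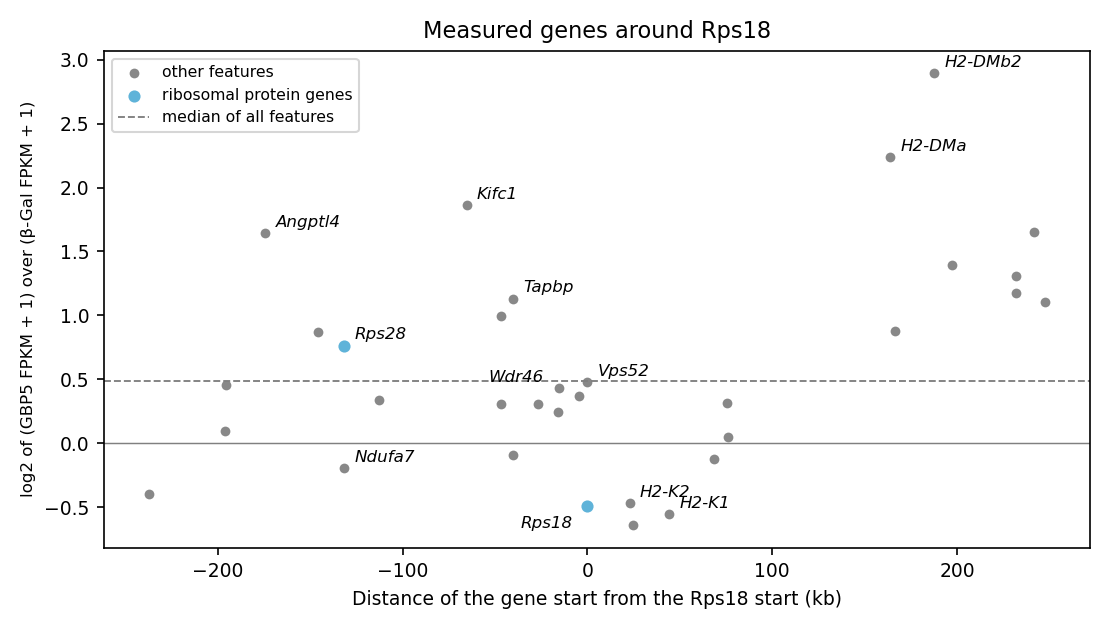
Log2 ratio of the GBP5 to the β-Gal library for Rps18 and the 32 other measured features within 250 kb, by distance in kb of each gene start from that of Rps18. The dashed line is the median of all features (0.48); Rps18 (-0.49) sits beside H2-K2 (-0.47) and H2-K1 (-0.56), while Vps52 (0.48) and Rps28 (0.76) lie at or above the dashed line.

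The ribosomal stalk recruits the GTPases that drive translation, and its 3 proteins had unlike ratios. Rplp0, which anchors the stalk and is often used as a reference gene, was at 690 FPKM in the control and 749 FPKM in the GBP5 library (0.12, and -0.42 after rescaling). Rplp1, the most abundant large-subunit mRNA by FPKM in the control, was at 1239 and 1462 FPKM (0.24). Rplp2, its partner in the dimers, was at 351 and 588 FPKM (0.74). Rplp0 was thus among the lowest cytosolic ratios and Rplp2 among the highest.

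Rpl5 and Rpl11 form the 5S ribonucleoprotein particle, which binds the ubiquitin ligase MDM2 and stabilises p53 when ribosome assembly fails. Rpl5 was at 365 and 531 FPKM (0.54) and Rpl11 at 550 and 761 FPKM (0.47). Rpl23, which also binds MDM2, was at 570 and 833 FPKM (0.55), and Rps7, another of its partners, at 401 and 519 FPKM (0.37). These ratios ran from 0.37 to 0.55, around the median of all features. Rps19, the gene most often mutated in human Diamond-Blackfan anaemia, was at 282 and 426 FPKM (0.60), and the 14 measured genes of that disease had a median of 0.50.

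The 11 members listed for other roles had ratios from -0.12 (Mrps5) to 0.88 (Rpl38), with a median of 0.48. Rpl13a, which in human cells joins a complex that silences inflammatory mRNAs after interferon-γ, was at 344 FPKM in the control and 481 in the GBP5 library (0.48). Rps3, a small-subunit protein that also takes part in DNA repair, was at 232 and 345 FPKM (0.57). Rps27a, made as a fusion with ubiquitin, was at 367 and 471 FPKM (0.36). Rps14, next to Rps2 in abundance among small-subunit mRNAs by FPKM, was at 775 and 1020 FPKM (0.40).

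Several ribosomal proteins have a second gene, and the liver used most of these pairs unequally. Rps27l, a direct p53 target in human cells, was at 520 FPKM in the control and 756 FPKM in the GBP5 library (0.54), beside 595 and 707 FPKM for Rps27 (0.25), whose start is printed above. Its share of the pair was 46.6% in the control and 51.7% in the GBP5 library, so that the order of the 2 genes was reversed. Rpl36al made up 46.0% and 42.7% of its pair with Rpl36a, at 238 and 304 FPKM beside 279 and 409 FPKM. Both interval bounds of the Rpl36al ratio, 1.22 and 1.34, were below the median ratio of 1.448.

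The minor partners stayed minor. Rpl22l1 was at 22.9 FPKM in the control and 30.3 FPKM in the GBP5 library, 12.0% and 11.9% of its pair with Rpl22. Rpl7l1, a factor related to Rpl7, was at 32.3 and 50.7 FPKM, 8.66% and 10.2% of that pair. Rps4l, which the annotation classes as a transcribed pseudogene and which is therefore no member, was at 10.6 and 20.1 FPKM beside 460 and 676 FPKM of Rps4x. Rpl3l, the striated muscle form of Rpl3, rested on 1 read in the control and 9 in the GBP5 library. The testis form Rpl39l had 3 and 1 reads, and Rpl10l, the testis form of Rpl10, was listed at 0 in both libraries. Rpl10 itself was at 743 and 934 FPKM (0.33).

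Among mitochondrial members the ends of the range were both in the small subunit. Mrps6 was at 9.13 FPKM in the control and 21.4 FPKM in the GBP5 library (1.15, and 0.64 after rescaling), the only member past 2-fold by the log2 ratio. Of its exons, 19.9% are overlapped by another gene on the same strand, and the part of this overlap in the ratio was not tested. Slc5a3, a myo-inositol transporter gene that lies within the span of Mrps6 on the same strand, was at 0.665 and 1.46 FPKM (0.57). Its FPKM ratio without the pseudocount was 2.20, from 70 and 144 reads, beside 2.35 for Mrps6. Mrps25 was at 3.88 and 8.63 FPKM (0.98), with 69.8% of its exons overlapped by another gene on either strand. Mrps36, now known as a subunit of the 2-oxoglutarate dehydrogenase complex, was at 23.0 and 37.5 FPKM (0.68), and Mrps30, which structures place in the large subunit, at 5.47 and 9.28 FPKM (0.67).

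At the other end Mrps24 was at 68.0 FPKM in the control and 48.5 in the GBP5 library, a ratio of 0.714 (0.640 to 0.796) and a log2 ratio of -0.48. Mrps35 was at 12.1 and 8.86 FPKM, a ratio of 0.733 (0.632 to 0.849) and a log2 ratio of -0.41. Both intervals lie below equal FPKM, so that counting error alone does not span it, while the spread between animals is unknown. Mrps27, a pentatricopeptide repeat protein, was at 10.7 and 9.34 FPKM (-0.18), Mrps5 at 34.6 and 31.8 FPKM (-0.12) and Mrps12 at 61.1 and 59.5 FPKM (-0.04). The most abundant small-subunit mRNA by FPKM, Mrps21, was at 146 and 147 FPKM (0.02), a ratio of 1.01 (0.927 to 1.10).

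In the mitochondrial large subunit the range was narrower. Mrpl40 was highest at 20.4 FPKM in the control and 36.8 FPKM in the GBP5 library (0.82), followed by Mrpl21 at 28.9 and 51.5 FPKM (0.81). Mrpl12, which binds and stimulates the mitochondrial RNA polymerase, was lowest at 34.2 and 31.7 FPKM (-0.10), and its ratio of 0.928 (0.828 to 1.04) includes equal FPKM. Mrpl9 was at 33.5 and 33.0 FPKM (-0.02) and Mrpl15 at 40.6 and 40.6 FPKM (0.00). The most abundant by FPKM in the control were Mrpl27 at 84.8 and 88.7 FPKM (0.06) and Mrpl2 at 83.3 and 92.7 FPKM (0.15), while in the GBP5 library Mrpl52 (111 FPKM) and Mrpl18 (99.3 FPKM) were highest. Mrpl41, linked to apoptosis, was at 58.9 and 70.0 FPKM (0.25), and Mrpl58, a peptidyl-tRNA hydrolase that rescues stalled mitochondrial ribosomes, at 24.2 and 29.1 FPKM (0.25).

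The ribosomal RNAs of the mitochondrion, which these proteins bind, were lower in the GBP5 library. The small rRNA mt-Rnr1 was at 1437 FPKM in the control and 1165 in the GBP5 library (-0.30), and the large rRNA mt-Rnr2 at 1490 and 959 FPKM (-0.63). These RNAs are transcribed from mitochondrial DNA, and how the libraries treated ribosomal RNA was not given in the sources used here.

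Below 1 FPKM in both libraries were 6 members, namely Rpl3l, Rpl39l, Rpl10l, Rpl24, Rps27rt and Mrpl53. Rps27rt is a retrogene copy of Rps27. Rpl24 and Mrpl53 encode constitutive subunits, yet Rpl24 had 1 and 4 reads and Mrpl53 was listed at 0 in both libraries. Of their exons, 47.0% and 88.0% are overlapped on the same strand by a second annotated gene. Rpl23a and Rpl35 were also low for their class, though well above those levels. Rpl23a was at 20.2 and 25.6 FPKM, Rpl35 at 36.3 and 55.7 FPKM. For this pair 62.3% and 66.2% of exons are overlapped on either strand, while the 83 cytosolic members under 50% overlap had a median of 365 FPKM in the control. Levels as low were also seen with little or no overlap, in Rps19bp1 at 20.2 FPKM, Rpl22l1 at 22.9 FPKM and Rpl7l1 at 32.3 FPKM in the control. However, Rps19bp1 is no ribosomal protein by function, and Rpl22l1 and Rpl7l1 are minor partners of their pairs. After Rpl35, the next lowest measured cytosolic member in the control was Rps15a at 83.7 FPKM. The part of read assignment in these levels was not tested, and the strand setting of the counting was not given in the sources used here. Ratios of Rpl23a and Rpl35, 0.33 and 0.60, were within the range of their class.

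Pseudogenes that copy ribosomal protein mRNAs had rows of their own, 269 in all, of which 22 were measured, 5 (22.7%) past 2-fold higher and none past 2-fold lower, near the 19.2% of all features past 2-fold higher. Of the 5, all but Rps2-ps10 were below 1 FPKM in the control and were measured only through the GBP5 library, where they are high. Rps3a2 was at 0.206 FPKM in the control and 41.6 FPKM in the GBP5 library, from 3 and 567 reads, beside 441 and 547 FPKM of its parent gene Rps3a1 (0.31). Rps2-ps10 was at 3.83 and 29.4 FPKM, Rpl34-ps1 was listed at 0 and 10.2 FPKM, Rpl15-ps2 was at 0.0886 and 3.79 FPKM and Rps2-ps6 at 0.653 and 4.45 FPKM. Reads of such copies may be shared with their parents, which was not tested, so these rows are uncertain. Values of these rows were small beside those of the parents.

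Subunits that the symbol rule leaves out behaved like the members. Of the cytosolic ones, Rpsa was at 282 FPKM in the control and 423 FPKM in the GBP5 library (0.58), the scaffold Rack1 at 279 and 411 FPKM (0.55) and Fau at a ratio of 0.15, with a median of 0.55 over 4 genes. The 5 mitochondrial ones had a median of 0.22, with Ptcd3 at 30.1 and 44.5 FPKM (0.55) and Chchd1 at 41.8 and 59.1 FPKM (0.49). None of these genes was past 2-fold in either direction.

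Genes that build cytosolic ribosomes had higher ratios in their median than the ribosomal proteins. Of 39 ribosome biogenesis genes, 10 (25.6%) were past 2-fold higher and none lower, beside 19.2% and 5.56% of all features, and 35 (89.7%) lay above the median of all features, with a list median of 0.85. Nop58, a core protein of the snoRNA particles that guide rRNA methylation, was at 27.5 FPKM in the control and 88.2 FPKM in the GBP5 library (1.65). Gar1, its counterpart in particles that guide pseudouridine, was at 17.9 and 54.6 FPKM (1.56). After rescaling 2 of the 39, Nop58 and Gar1, were past 2-fold higher, against 7.04% of all features. Of 13 RNA polymerase I genes, which serve rRNA synthesis, 3 (23.1%) were past 2-fold higher, near the 19.2% of all features, and 12 lay above the median of all features, with a list median of 0.72. Taf1d was at 7.32 and 20.5 FPKM (1.37) and Polr1e at 3.08 and 8.46 FPKM (1.21), and none of the 13 was past 2-fold after rescaling.

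Translation factors were mixed. Of 26 initiation genes, 3 (11.5%) were past 2-fold higher and none lower, beside 19.2% and 5.56% of all features, with a median of 0.71, and after rescaling none was higher and 1, the helicase Eif4a2 at 247 and 167 FPKM, was past 2-fold lower. Eif6, which keeps free large subunits apart from small ones, was at 145 and 302 FPKM (1.06), and Eif4ebp1, an mTOR-controlled inhibitor of cap-dependent initiation, at 67.8 and 139 FPKM (1.03). The 14 other genes known for TOP mRNAs had a median of 0.46, with 1 past 2-fold higher, Hnrnpa1 at 72.8 and 213 FPKM (1.54). Npm1, a nucleolar chaperone of ribosome assembly, was at 160 and 316 FPKM (0.97). Among 6 regulators of TOP mRNAs, Myc, a transcription factor that drives ribosome production, was at 5.87 and 18.5 FPKM (1.50), the only 1 past 2-fold, and Mtor was at 19.5 and 34.1 FPKM (0.77).

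Genes that serve mitochondrial protein synthesis had medians below that of all features, as the mitochondrial ribosomal proteins did. The medians were 0.23 for 11 translation factors, 0.24 for 20 assembly factors, 0.37 for 5 transcription genes and 0.31 for 17 mitochondrial tRNA synthetases. In these lists 2 genes were past 2-fold higher and none lower, beside 19.2% and 5.56% of all features. They were Trub2 at 9.31 FPKM in the control and 22.8 in the GBP5 library (1.21) and Rpusd4 at 7.20 and 16.7 FPKM (1.11), both pseudouridine synthases that act on mitochondrial RNA. The elongation factor Tsfm was at 20.7 and 31.0 FPKM (0.56) and the release factor Mtrf1l at 5.26 and 7.68 FPKM (0.47). Tfam, which packages and transcribes mitochondrial DNA, was at 42.9 and 62.5 FPKM (0.53), and Mterf1a, a termination factor, at 1.26 and 2.09 FPKM (0.46). The threonyl-tRNA synthetase Tars2 was at 16.6 and 30.3 FPKM (0.83) and Ears2, which charges glutamate, at 2.57 and 5.16 FPKM (0.79).

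**Figure D5:**
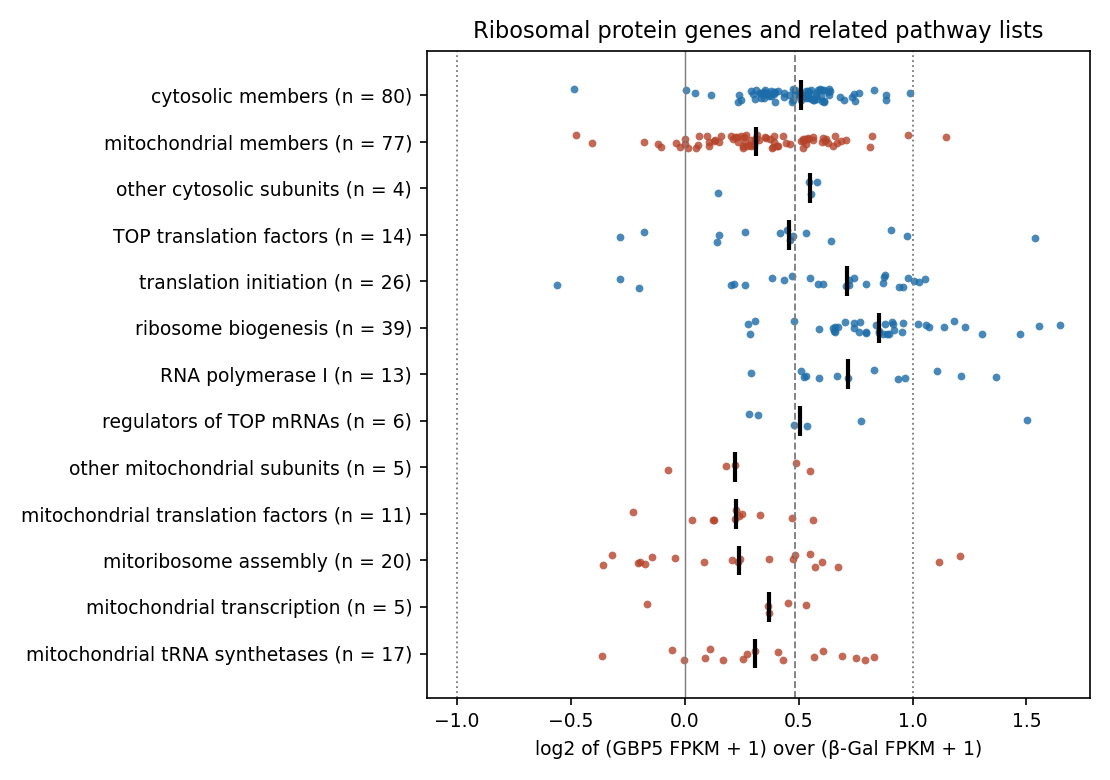
Log2 ratio of the GBP5 to the β-Gal library for measured ribosomal protein genes and for the genes of 11 related lists (points; bars, medians), cytosolic in blue and mitochondrial in red. The dashed line is the median of all features (0.48) and dotted lines mark 2-fold; the bars of ribosome biogenesis (0.85), RNA polymerase I (0.72) and initiation (0.71) lie right of it, and those of all mitochondrial lists lie left of it, from 0.22 to 0.37.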

How the data were processed

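Liver RNA was sequenced in 2 libraries, 1 per group. The authors deposited FPKM per gene, made with TopHat2 and HTSeq 0.6.1 on GRCm38 per the submitters' processing notes; the annotation release was not given in the sources used here, nor the strand setting. FPKM depends on the library total, so abundant genes shift all others, and levels set beside each other across genes depend on the isoform lengths used. Symbols, lengths and overlaps came from GENCODE M21 (46488 features matched), and start sequences from RefSeq. Reads were recovered as whole multiples (tolerance 0.02) of FPKM times mean isoform length; 80.6% and 82.5% of values up to 50 reads came out whole. Computations used Python 3.11.15, pandas 2.3.3 and scipy 1.17.1 and were tested on simulated data. A feature was past 2-fold where its log2 ratio reached 1 or -1.

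The members and lists were chosen with earlier results of these data known. Named genes were all members of short lists (paralogues and their parents, stalk, 5S particle, genes of known extra roles), per class the 3 highest and 3 lowest ratios, the 2 highest β-Gal levels and those past 2-fold, and per pathway list the 2 largest absolute ratios. Eif4a2, Fau, Mrps12, Mrpl18, Mrpl52, Rps3a1, Rps15a and the pseudogenes were named after their values were seen. So were the genes low for overlap and the neighbours of Rps18, Mrps6 and Rpl19 in order. Of the named genes, 1 is not reported here. Of the listed symbols, Riok2 and 1 gene of mitochondrial translation were not matched. Alternatives were other pseudocounts, filters, scalings and subsets.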

Additional observations from a re-analysis of the deposited data

How the results depend on the processing

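No paired analysis was possible because each group had 1 library, and none could be left out. With a pseudocount of 0.1 FPKM, 2 mitochondrial small-subunit genes and 5 RNA polymerase I genes were past 2-fold higher; with 5 FPKM the numbers were 0 and 1, and those of initiation, biogenesis and mitoribosome assembly genes 1, 5 and 0. After median rescaling the class medians were -0.021 and -0.040 (cytosolic large and small) and -0.19 and -0.19 (mitochondrial), 1 cytosolic small-subunit gene was lower and 0 mitochondrial small-subunit genes higher, and of the lists 0 initiation genes were higher and 1 lower, with 2 biogenesis, 0 RNA polymerase I and 0 assembly genes higher. With both libraries scaled to equal sums (TPM), the cytosolic large median was 0.57, and 1 cytosolic small, 2 mitochondrial small, 2 TOP factor, 6 initiation and 5 RNA polymerase I genes were higher. With equal sums without the 50 most abundant genes, the class medians were 0.36, 0.34, 0.17 and 0.17, and 0 initiation, 6 biogenesis and 1 assembly genes were higher; by that total, cytosolic genes held 6.43% and 7.94% and mitochondrial genes 0.514% and 0.572% of FPKM in the β-Gal and GBP5 libraries. Members with whole reads only gave a cytosolic large median of 0.38, a mitochondrial small median of 0.037 with 0 genes higher, and shares of 0.324% and 0.450% (cytosolic) and 0.114% and 0.139% (mitochondrial). Leaving out the paralogues gave cytosolic shares of 4.13% and 5.88%. Leaving out chromosome 17, a choice made after seeing the data, gave 3.80% and 5.56% for cytosolic and 0.294% and 0.377% for mitochondrial genes. Changed shares under subsets follow from the fewer genes summed. Of 76 named genes with a ratio, 24 went from above to below 0 under median rescaling, 6 without the most abundant genes and 0 under TPM. Over all 13599 measured features 958 were past 2-fold higher and 1276 lower after median rescaling, 3606 and 946 with a pseudocount of 0.1, and 1101 and 435 with 5, beside 2605 and 756. Under TPM 3185 of them were past 2-fold higher and 753 lower, and without the 50 most abundant genes 1922 and 865. Depth limits genes of few reads, such as Rpl3l.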
